A study of Mus musculus with 24 samples.

Results

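Oxidative phosphorylation is carried out by 5 protein complexes of the inner mitochondrial membrane, and most of their subunits are encoded in the nucleus. The nuclear subunit genes were followed here in mouse bone marrow-derived dendritic cells (DCs), antigen-presenting cells grown from marrow. Members were taken by gene symbol: names beginning with Ndufa, Ndufb, Ndufc, Ndufs, Ndufv, Uqcr, Atp5 or Cox4 to Cox8, together with Sdha to Sdhd and Cyc1. The assembly factors named Ndufaf, Cox6a2 and symbols with -ps were left out, and a gene had to have a count of at least 10 in at least 4 of the 24 samples. Of 105 symbols with these prefixes 16 were left out by name and 7 by the count rule, so that 82 of the 38887 genes in the deposited table were members. They comprised 39 genes of complex I, 4 of complex II, 9 of complex III, 14 of complex IV and 16 of complex V, assigned by symbol. Cox4i2 and Cox6b2 lay just inside the count rule, with exactly 4 samples at or above 10 and highest counts of 19 and 11. The genes outside it (Atp5g2, Cox6c2, Cox7b2, Cox8b, Cox8c, Ndufa11b and Ndufs6b) had a highest count of 0 or 1. Cox6b2 did not pass edgeR's filter on low counts, and 81 members were tested.

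Complex I takes electrons from NADH and complex II from succinate, and both pass them to coenzyme Q. Complex III hands them on to cytochrome c, and complex IV, cytochrome c oxidase, gives them to oxygen. Complexes I, III and IV pump protons, and complex V, the ATP synthase, uses the proton gradient to make ATP. In DCs and macrophages, activation through Toll-like receptors is known to move metabolism from respiration toward glycolysis.

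Both genotypes, wild type (WT) and knockout (KO), are named for IRE1α, a stress sensor of the endoplasmic reticulum encoded by Ern1. They were left untreated, given zymosan, a yeast cell wall preparation known as a ligand of dectin-1, or given lipopolysaccharide (LPS), a bacterial product sensed by Toll-like receptor 4. The allele, any Cre driver, strain, age, dose and time are not given in the sources used here. Each of the 6 groups (WT untreated, WT zymosan, WT LPS, KO untreated, KO zymosan and KO LPS) had 4 replicates, and the labels do not say whether these were separate mice or cultures. P-values then measure only the spread between these samples, which may be technical.

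Total counts per sample were 32223256 to 46927434. Ern1 was not lower in libraries labelled KO (48.2 to 54.6 CPM untreated, against 40.2 to 43.3 CPM in WT), and a count over the whole gene checks nothing about a deletion, so samples are called labelled KO. CPM, the usual depth-normalized count, is relative to the library total scaled by its TMM factor. Within groups the replicates fell into pairs, 1 with 2 and 3 with 4, at a chi-square per gene of 1.89 to 7.78 inside a pair and 6.37 to 23.3 between pairs. The exception was WT LPS, where 2 and 3 (6.37) differed less than 3 and 4 (7.78). Calls were therefore also made with each pair summed, which leaves 2 values per group. That value is given where it ends the call of a subunit described on its own. It is also given where it moves a count over all members in 1 comparison by more than 1.5 times. Counts by complex and over all 4 responses are given without it. The DC marker Itgax had group means of 1051 to 1309 CPM and Cd74, of antigen presentation, 2096 to 2822 CPM. Flt3 was low, at 0.932 to 2.34 CPM, and 9 lymphocyte markers summed to 0.572 to 1.77 CPM. Siglech of plasmacytoid DCs had at most 0.0275 CPM, but the 6 markers of these cells summed to 153 to 180 CPM in WT untreated samples and 969 to 1090 CPM in WT LPS. In WT untreated samples neutrophil markers summed to 1110 to 1740 CPM and macrophage and monocyte markers to 1830 to 1890 CPM. Labelled KO and untreated, these sums were 1100 to 1570 and 1530 to 1660 CPM. Summed markers of eosinophils, mast cells and basophils were 814 to 1120 CPM in WT untreated samples and 64.7 to 69.8 CPM in untreated samples labelled KO.

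Among these subunits mRNA levels per kilobase of exon spanned from 0.194 to 399 CPM per kb (mean of 24 samples). The ATP synthase β subunit gene Atp5b (ENSMUSG00000025393, chromosome 10, 128083273 to 128090391, plus strand; GRCm38, gene models of GENCODE M21) had the highest level per kb, followed by Cox8a, a small subunit of cytochrome c oxidase, at 328 CPM per kb. The highest members of the other complexes were Uqcrh, the hinge protein of complex III (167), Ndufa1, an accessory subunit of complex I (129), and Sdhd, a membrane anchor of complex II (101). By complex the median level per kb was 39.3 CPM in I, 60.8 in II, 74.9 in III, 121 in IV and 117 in V. Lowest were the alternative isoforms: Cox4i2 at 0.194, Cox6b2 at 0.234 and Ndufa4l2 at 0.551 CPM per kb. Most members were thus expressed well above these isoforms, and the medians of complexes IV and V lay above those of the others.

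**Figure D1:**
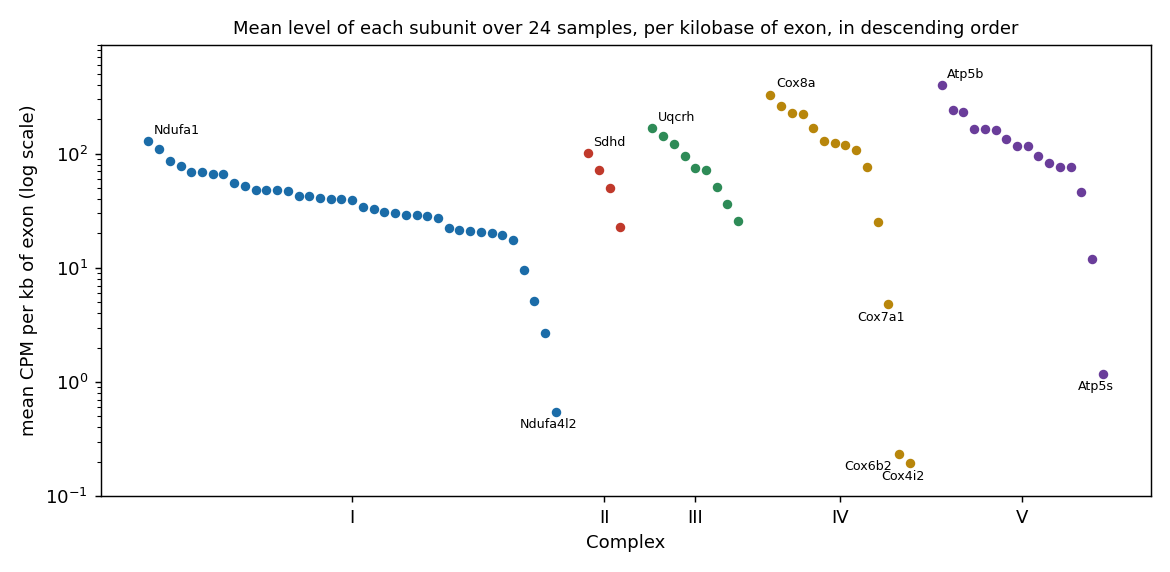
Mean level of each of the 82 members over 24 samples, in CPM per kb of exon on a log axis, in descending order within each complex; each point is 1 gene. Atp5b (399) and Cox8a (328) are highest, and the isoforms Cox4i2, Cox6b2 and Ndufa4l2 lie below 1 CPM per kb.

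Stimulation of WT cells shifted these genes by small steps, with complex II lower throughout, most changed subunits of complexes I and V lower, and changed subunits of complex IV mostly higher. With zymosan 8 of 81 members rose and 34 fell at an edgeR adjusted p under 0.05, 51.9% in all, beside 70.2% of all 14188 genes tested (34.3% higher, 35.9% lower). With LPS 20 rose and 35 fell, 67.9%, beside 75.6% of all genes (35.9% higher, 39.7% lower). Among the members called, falls outnumbered rises in both responses. No member passed 2-fold with either stimulus in WT cells, where 2627 and 3719 of all genes did.

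The median log2 fold change over the members was -0.091 with zymosan and -0.10 with LPS, against -0.014 and -0.042 over all genes. Labelled KO, 9 members rose and 32 fell with zymosan (66.8% of all genes called, 31.6% higher and 35.2% lower), and 13 rose and 35 fell with LPS (71.8%, 34.4% and 37.4%). Of the members 7 rose in all 4 responses (Atp5j, Cox6c, Cox7a2, Ndufa1, Ndufs4, Uqcrc2 and Uqcrfs1) and 24 fell in all 4, 8.64% and 29.6% of the 81, beside 25.4% and 27.6% of all genes tested. The responses of one genotype share their untreated samples, so they are not independent of each other. With replicate pairs summed, 12 members rose with LPS in WT, 5 rose and 21 fell with zymosan in samples labelled KO, and 8 rose with LPS there. The rises of Atp5j then ended in all 4 responses. Those of Ndufa1 and Uqcrc2 ended with zymosan in samples labelled KO (edgeR adjusted p = 0.177 and 0.0536). Among the 24, the falls of Ndufs8, Sdhb, Ndufs6, Uqcr10, Atp5a1 and Atp5b ended in that response too (0.134, 0.104, 0.119, 0.0506, 0.063 and 0.197). In WT those of Ndufs8 and Atp5b ended with zymosan (0.0507 and 0.0785). Those of Uqcr10, Atp5a1 and Atp5b ended with LPS in WT (0.0567, 0.0594 and 0.132). With LPS in samples labelled KO that of Ndufs6 ended (0.0771). Values in bulk RNA cannot tell fewer cells of a type from less RNA per cell. Proliferation genes moved with the same contrast (12 of 15 lower with zymosan and 13 with LPS in WT; summed level 659 to 685 CPM untreated, 508 to 560 with zymosan and 451 to 467 with LPS), and their part in the falls was not tested.

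**Figure D2:**
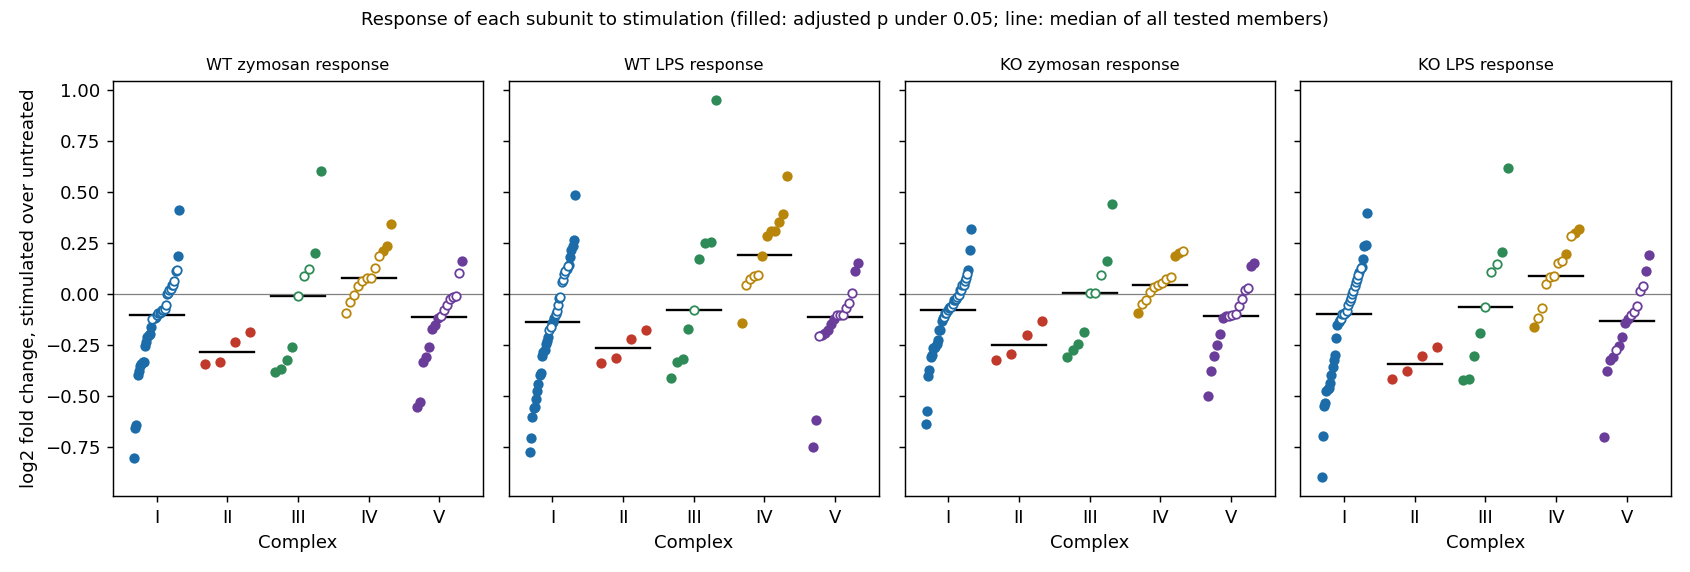
Log2 fold change of each member by complex in the 4 responses to stimulation; filled points passed the test (edgeR adjusted p under 0.05), open points did not, and lines mark the median of all tested members of a complex. Complex II lies wholly below 0 in all 4 panels; the low-level isoforms Cox4i2 and Ndufa4l2 are not drawn, and Cox6b2 was not tested.

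Complex I had falls in 18 of 39 members and rises in 2 with zymosan, and falls in 19 and rises in 7 with LPS, in WT cells. The medians were -0.10 and -0.14. Labelled KO, 15 fell and 3 rose with zymosan, and 17 and 6 with LPS. The member with the largest fall in both was Ndufs7 (ENSMUSG00000020153, chromosome 10, 80249121 to 80256794, plus strand), which carries the last iron-sulfur cluster of the chain that hands electrons to coenzyme Q. Its CPM in replicates 1 to 4 was 40.2, 41.1, 41.1 and 46.9 in WT untreated, 25.7, 23.6, 21.4 and 26.1 with zymosan and 26.9, 22.6, 24.3 and 25.2 with LPS. All stimulated samples lay below all untreated ones. The fold change was 1.75-fold lower with zymosan (log2 -0.81 ± 0.080, here and below with its SE, 4 samples a group, edgeR adjusted p = 1.86e-09) and 1.71-fold lower with LPS (-0.78 ± 0.080, 2.71e-09). Samples labelled KO had 50.6, 50.5, 43.9 and 41.3 CPM untreated, 31.7, 31.2, 25.5 and 31.1 with zymosan and 26, 26.7, 23.8 and 23.3 with LPS. There too all stimulated samples lay below untreated ones, and Ndufs7 fell with both stimuli (log2 -0.64 ± 0.079 and -0.90 ± 0.079).

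Next in size were Ndufb10 and Ndufa8, accessory subunits with twin cysteine motifs. Ndufb10 fell from 45.8 ± 2.35 CPM to 29 ± 1.52 with zymosan and 28 ± 0.567 with LPS in WT cells (means ± SD, n = 4; log2 -0.66 ± 0.049 and -0.71 ± 0.049). Ndufa8 fell from 43.8 ± 1.27 to 28.1 ± 2.18 and 28.8 ± 0.873 CPM (log2 -0.64 ± 0.046 and -0.60 ± 0.046). Of the core subunits that hold the redox centres, Ndufs1 (log2 -0.33 with zymosan, -0.52 with LPS), Ndufs8 (-0.23, -0.39) and Ndufv1, which binds NADH and flavin (-0.25, -0.23), fell in both. The fall of Ndufs8 with zymosan ended with pairs summed (edgeR adjusted p = 0.0507). The core subunit Ndufv2 passed the test with LPS (-0.14, lower; with pairs summed edgeR adjusted p = 0.146) and not with zymosan (-0.093, edgeR adjusted p = 0.134). The core subunit Ndufs3 rose with LPS (0.18) and had -0.052 with zymosan (edgeR adjusted p = 0.294). Core subunits therefore did not move in 1 direction.

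Ndufs4 (ENSMUSG00000021764, chromosome 13, 114287795 to 114388258, minus strand), an accessory subunit needed for a stable electron input module, rose most in complex I. Its CPM in replicates 1 to 4 was 37.9, 39.1, 39.4 and 36.9 in WT untreated, 52.3, 53.1, 49.8 and 49.2 with zymosan and 53.6, 53.5, 54.7 and 52.8 with LPS. The groups did not overlap with untreated, and the rises were 1.33-fold and 1.4-fold (log2 0.41 ± 0.053 and 0.49 ± 0.053, edgeR adjusted p = 1.4e-07 and 7.21e-09). The samples labelled KO had 43.2, 39.9, 42.3 and 39.1 CPM untreated, 49.9, 49.8, 56.8 and 49 with zymosan and 50.5, 50.5, 59.5 and 55.9 with LPS, again with no overlap with untreated. Ndufa1, the small membrane subunit with the highest level per kb in the complex, was 49.4 ± 3.45 CPM untreated and rose to 56.1 ± 2.15 with zymosan and 58.2 ± 0.556 with LPS in WT. Its log2 values were 0.19 ± 0.051 and 0.24 ± 0.051. The rise of Ndufa1 with zymosan in samples labelled KO (0.12) ended with pairs summed (edgeR adjusted p = 0.177) and with the replicate number as a block nested in genotype (0.05).

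All 4 genes of complex II, the succinate dehydrogenase shared with the tricarboxylic acid cycle, fell in all 4 responses. Their summed level was 475 ± 16.6 CPM in WT untreated (SD, n = 4), 388 ± 6.97 with zymosan and 391 ± 4.13 with LPS, and 488 ± 5.11, 408 ± 3.13 and 381 ± 9.54 CPM in samples labelled KO. Every stimulated sum lay below every untreated sum of its genotype. Sdha (ENSMUSG00000021577, chromosome 13, 74322254 to 74350280, minus strand), the flavoprotein that oxidizes succinate, had 166, 162, 171 and 169.5 CPM in WT untreated, 127, 134, 131 and 135 with zymosan and 133, 131, 131 and 133 with LPS. It fell 1.27-fold with zymosan and 1.27-fold with LPS (log2 -0.34 ± 0.034 and -0.34 ± 0.034, edgeR adjusted p = 2.33e-09 and 1.96e-09), and no stimulated sample reached the untreated range. Labelled KO, the values were 171, 162, 166 and 178 untreated, 136, 134, 134 and 136 with zymosan and 124, 122, 132 and 129 with LPS, or log2 -0.33 ± 0.034 and -0.41 ± 0.034. Sdhd, which anchors the enzyme in the membrane with Sdhc, had 131, 140.4, 145 and 138 CPM in WT untreated, 118, 112, 107 and 103 with zymosan and 114, 107, 112 and 113 with LPS. Its stimulated samples too lay below all untreated ones (log2 -0.33 and -0.31). Sdhc (-0.23 and -0.17) and the iron-sulfur subunit Sdhb (-0.19 and -0.22) fell less. In samples labelled KO the fall of Sdhb with zymosan (-0.13) ended with pairs summed (edgeR adjusted p = 0.104).

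Complex III was split, with 2 rises and 4 falls among 9 members with zymosan and 4 of each with LPS in WT, and 2 rises and 4 falls with either stimulus labelled KO. Its median of -0.010 with zymosan turned to 0.0049 with DESeq2's size factors and had no settled sign. Uqcrfs1 (ENSMUSG00000038462, chromosome 13, 30540308 to 30545362, minus strand), the Rieske iron-sulfur protein that draws electrons from coenzyme Q, rose most of all members. Its CPM was 68.1, 68.2, 74.5 and 73 in WT untreated, 104, 106, 105 and 116 with zymosan and 130, 133, 136 and 151 with LPS. The 3 groups did not overlap, and the rises were 1.52-fold and 1.93-fold (log2 0.60 ± 0.051 and 0.95 ± 0.051, edgeR adjusted p = 9.55e-11 and 7.18e-15). In samples labelled KO it had 77.8, 75.3, 76.3 and 74.7 CPM untreated, 104, 99.7, 111 and 99.6 with zymosan and 112, 112, 125 and 118 with LPS, again with no overlap with untreated.

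Cyc1 (ENSMUSG00000022551, chromosome 15, 76343523 to 76346260, plus strand), the cytochrome that passes electrons from the Rieske protein to cytochrome c, moved the other way. It had 59.8, 61.8, 66.2 and 69.9 CPM in WT untreated, 50.5, 49.8, 48 and 51.7 with zymosan and 48.4, 48.1, 45.5 and 51.7 with LPS, all stimulated samples below all untreated ones (log2 -0.37 ± 0.048 and -0.41 ± 0.048). The small subunit Uqcr11 had the largest fall of the complex with zymosan, from 44.2, 46.6, 47.6 and 49.7 to 38.9, 36, 33.9 and 35.8 CPM in WT, with 37.7, 35.6, 37.5 and 40.1 CPM after LPS. Its groups did not overlap with untreated either (log2 -0.38 ± 0.069 and -0.32 ± 0.068). The core proteins parted: Uqcrc1 fell (-0.33 with zymosan and -0.34 with LPS) and Uqcrc2 rose (0.20 and 0.25). The hinge protein gene Uqcrh rose with LPS from 86.1 ± 3.15 to 97.1 ± 1.2 CPM in WT, a call that ended with pairs summed (edgeR adjusted p = 0.061).

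Complex IV was the only complex with a median above 0 in all 4 responses, 0.077 with zymosan and 0.19 with LPS in WT and 0.044 and 0.090 in samples labelled KO; with DESeq2's size factors these were 0.092, 0.23, 0.058 and 0.12. Of 13 members tested 3 rose and 0 fell with zymosan in WT, and 7 rose and 1 fell with LPS. Labelled KO, 2 rose and 2 fell with zymosan, and 3 rose and 2 fell with LPS. The falls there were Cox4i1 with zymosan (log2 -0.093 ± 0.041, edgeR adjusted p = 0.0483, and 0.233 with pairs summed) and Cox5a with LPS (-0.16 ± 0.050, edgeR adjusted p = 0.00493, and 0.0363 with pairs summed), the other in each being the low-level isoform Cox4i2. That isoform met the count rule through untreated samples, most of them labelled KO, so its falls are not independent of the rule. Cox8a (ENSMUSG00000035885, chromosome 19, 7215153 to 7217616, minus strand) had the largest rise, from 114, 137, 135 and 166 CPM in WT untreated to 146, 178, 175 and 201 with zymosan and 174, 202, 201 and 247 with LPS. Zymosan samples overlapped with untreated ones and LPS samples did not. The rises were 1.27-fold and 1.49-fold (log2 0.34 ± 0.13 and 0.58 ± 0.13, edgeR adjusted p = 0.0213 and 0.000292). The zymosan call ended with pairs summed (0.0944), without WT untreated replicate 1 (0.0905) and without WT zymosan replicate 4 (0.0852).

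In samples labelled KO Cox8a was 194, 192, 145 and 139 CPM untreated, 226, 212, 166 and 169.9 with zymosan and 213, 223, 198 and 182 with LPS. Replicates 1 and 2 lay above replicates 3 and 4 in all 3 of these groups, and neither response passed without a replicate block (edgeR adjusted p = 0.157 and 0.0525). Each zymosan sample lay above the untreated sample of its number. With the block nested in genotype and fitted over all 24 samples Cox8a rose with zymosan (log2 0.21 ± 0.044, edgeR adjusted p = 0.000249). Cox6c and Cox7a2, nuclear subunits at the rim of the enzyme, rose with less spread. Cox6c went from 113 ± 4.59 CPM in WT untreated to 133 ± 6.94 with zymosan and 149 ± 4.37 with LPS (log2 0.23 ± 0.048 and 0.39 ± 0.048). Cox7a2 went from 70.1, 77.9, 77.6 and 74.9 to 89.8, 91.2, 86.3 and 80.4 with zymosan and 96.2, 96.2, 96.8 and 95 with LPS, with no overlap (log2 0.21 ± 0.046 and 0.35 ± 0.046). Both also rose in samples labelled KO (0.19 and 0.20 with zymosan, 0.32 and 0.30 with LPS). Cox5b and Cox6a1 passed the test with LPS in WT and not in samples labelled KO (0.31 and 0.31 in WT, 0.16 and 0.082 labelled KO); without a block the test of the difference between genotypes did not pass for either (edgeR adjusted p = 0.518 and 0.208).

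The fall in complex IV with LPS in WT was that of Cox7b, from 105, 119, 114 and 109 to 97.9, 102, 103 and 101 CPM, groups that do not overlap, with 118, 111, 104 and 102 CPM after zymosan. It was small (log2 -0.14 ± 0.055, edgeR adjusted p = 0.0212) and ended with pairs summed (0.125), with DESeq2's size factors (0.0898), with DESeq2 (0.105) and without WT untreated replicate 2 (0.0846) or WT LPS replicate 1 (0.0604). Cox4i1 and Cox6b1, the main isoforms of their subunits, did not pass in WT, except Cox4i1 with zymosan, which was lower with the replicate block (edgeR adjusted p = 0.0455 nested, 0.0496 shared; 0.0507 without it). Cox4i1 was 194 ± 10.8 CPM untreated, 183 ± 6.55 with zymosan and 204 ± 6.78 with LPS, and Cox6b1 136 ± 7.28, 139 ± 7.86 and 145 ± 3.92 CPM. Ndufa4, counted by its symbol under complex I, is known as a subunit of complex IV. It had 20.8 ± 1.42 CPM in WT untreated and log2 values of -0.10 and -0.16 that did not pass (edgeR adjusted p = 0.228 and 0.0584).

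In complex V 8 of 16 members fell and 1 rose with zymosan in WT, and 7 fell and 2 rose with LPS; labelled KO, 7 fell and 2 rose, and 8 fell and 2 rose. The largest falls were those of Atp5g1 (ENSMUSG00000006057, chromosome 11, 96068852 to 96075670, minus strand), 1 of the genes for subunit c, whose ring turns in the membrane as protons pass. It had 70.8, 73.9, 79.9 and 79 CPM in WT untreated, 52.4, 51.8, 51.6 and 51 with zymosan and 44.1, 44.7, 44.5 and 47 with LPS. The 3 groups did not overlap, and the falls were 1.47-fold and 1.68-fold (log2 -0.55 ± 0.051 and -0.75 ± 0.051, edgeR adjusted p = 4.54e-10 and 9.65e-13). Labelled KO, the values were 82.5, 79.1, 74.1 and 71.3 untreated, 57.9, 55, 49 and 54.9 with zymosan and 46.3, 49.7, 47.5 and 45.4 with LPS; stimulated samples again lay below untreated ones, while zymosan and LPS samples overlapped. A pseudogene, Gm10039, is 99.8% identical to Atp5g1 over 69.0% of its transcript and held 8.31% of their joint median counts.

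Atp5s, factor B, had the next largest falls at a low level, from 2.27 ± 0.107 CPM to 1.58 ± 0.217 with zymosan and 1.48 ± 0.107 with LPS (log2 -0.53 ± 0.14 and -0.62 ± 0.14). Atp5d, the δ subunit of the central stalk, fell with zymosan (-0.33 ± 0.096) and did not pass with LPS (-0.21 ± 0.096, edgeR adjusted p = 0.0555). Atp5g3, which encodes the same subunit c as Atp5g1, fell too, from 183, 186, 197 and 200 to 158, 158, 145 and 157 CPM with zymosan and 169, 165, 167 and 164 with LPS in WT (log2 -0.31 ± 0.039 and -0.20 ± 0.039), with no overlap. The catalytic genes Atp5a1 and Atp5b fell by less. Atp5b had 742, 794, 835 and 828 CPM in WT untreated, 720.3, 699, 718 and 746 with zymosan and 702, 729.7, 739 and 768 with LPS, groups that overlapped by a single untreated sample. Its log2 values were -0.15 ± 0.040 and -0.12 ± 0.040, and both calls ended with pairs summed (edgeR adjusted p = 0.0785 and 0.132); its fall with LPS in samples labelled KO (-0.26 ± 0.040) did not (edgeR adjusted p = 0.00569). Atp5a1 had -0.26 with zymosan and -0.19 with LPS, and the second call ended with pairs summed (edgeR adjusted p = 0.0594).

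Atp5j, coupling factor 6 of the stator stalk, was the member of complex V that rose in all 4 responses. In WT it had 96.8, 104, 102 and 95.8 CPM untreated, 118, 112, 108 and 107 with zymosan and 107, 111, 110.2 and 103 with LPS, so that zymosan samples lay above untreated ones and LPS samples overlapped with them. The rises were small (log2 0.16 ± 0.045 and 0.11 ± 0.045), and with pairs summed all 4 ended (edgeR adjusted p = 0.0511 and 0.136 in WT, 0.0958 and 0.152 in samples labelled KO). Atp5l, subunit g of the membrane part, rose with LPS in WT, with 83, 93.6, 83.6 and 81.3 CPM untreated and 98.7, 86.5, 102 and 93.3 with LPS, groups that overlap (log2 0.15 ± 0.067, edgeR adjusted p = 0.0415). That call ended with pairs summed (0.165), without the filter on low counts (0.0618) and without any 1 of 6 libraries (0.0517 to 0.136: WT untreated replicate 1, 3 or 4, WT LPS replicate 1, 3 or 4). The pseudogene Gm10221 is 100% identical to Atp5l over 56.8% of its transcript and held 33.45% of their joint counts, so the share of Atp5l is uncertain.

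**Figure D3:**
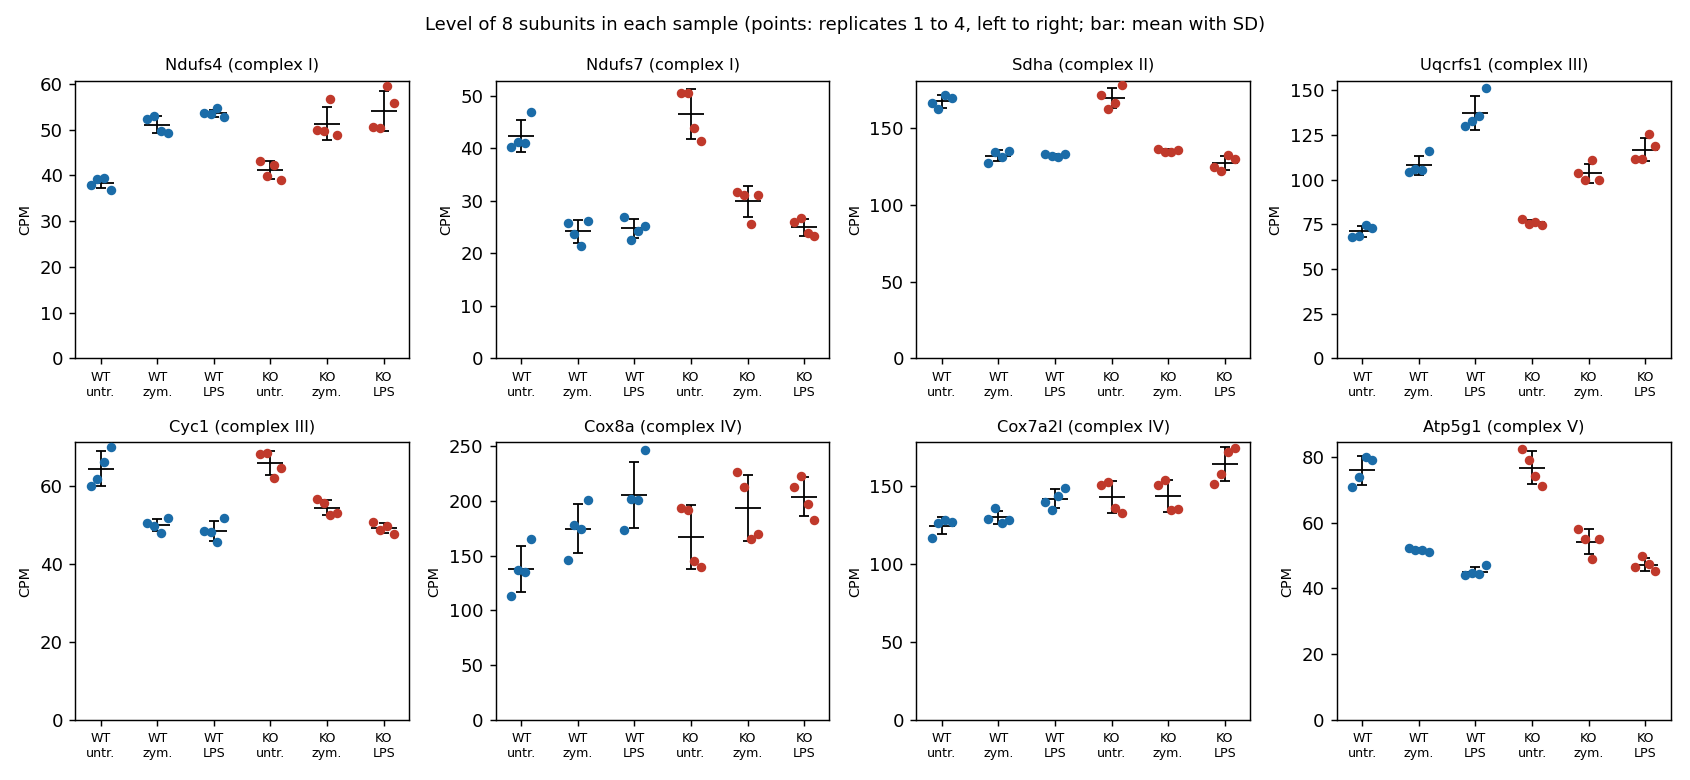
CPM of 8 members in each of the 24 samples, with points for replicates 1 to 4 from left to right (blue WT, red labelled KO) and bars for the mean with SD; each axis starts at 0. Stimulated samples lie above untreated ones for Uqcrfs1 and Ndufs4 and below them for Ndufs7, Sdha, Cyc1 and Atp5g1, while Cox8a and Cox7a2l spread by replicate pair in untreated samples labelled KO.

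Fewer members were called between zymosan and LPS than between either and no stimulus. In WT 5 members were higher and 10 lower with zymosan than with LPS, beside 46.4% of all genes called (24.5% higher, 21.9% lower). Uqcrfs1 was lower with zymosan (log2 -0.35 ± 0.051, edgeR adjusted p = 3.51e-06), its samples of both groups apart, and Cox6a1, Cox4i1, Cox6c and Cox7a2 of complex IV were lower as well (-0.23, -0.16, -0.16 and -0.14). Atp5g1 was higher (0.20 ± 0.052), as were Ndufa6, Ndufa12, Ndufv3 and Ndufs1 of complex I (0.23, 0.21, 0.19 and 0.18). In samples labelled KO 19 members were higher and 7 lower with zymosan than with LPS (42.7% of all genes called, 22.7% higher and 20.0% lower), 10 of the 19 in complex I and 3 in complex II. With pairs summed the calls in WT were Ndufs1, higher, and Ndufa11, Ndufc2, Ndufs3 and Uqcrfs1, lower; those of the complex IV genes (edgeR adjusted p = 0.148, 0.0698, 0.113 and 0.147), Atp5g1 (0.0628), Ndufa6 (0.0658), Ndufa12 (0.0916) and Ndufv3 (0.132) ended. The counts were then 1 higher and 4 lower in WT and 1 higher and 0 lower in samples labelled KO. Without the filter on low counts 11 were higher in samples labelled KO, and without KO zymosan replicate 1 there were 10.

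Between genotype labels the fewest calls were in untreated cells. There the samples labelled KO had 3 members higher and 0 lower, beside 9.95% of all genes called (4.31% higher, 5.64% lower). At an unadjusted p under 0.05 there were 9 of 81 higher and 0 lower, beside 10.2% and 10.6% of all genes. DESeq2 called 3 and 0. The calls were Ndufa4l2, Cox7a2l and Cox4i1. With only the groups compared, with pairs summed, or without WT untreated replicate 1, KO untreated replicate 1 or KO untreated replicate 2, 0 members were called higher. Untreated, 1 of 8 macrophage and monocyte markers was above and 3 below WT, 5 and 1 of 11 tested conventional DC markers, and 1 and 3 of 11 neutrophil markers; their part in these calls was not tested.

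Ndufa4l2 (ENSMUSG00000040280, chromosome 10, 127514967 to 127517154, plus strand), a hypoxia-inducible relative of Ndufa4, had the largest difference, and the only one past 2-fold. It had 0.243, 0.331, 0.345 and 0.46 CPM in WT untreated and 1.13, 1.16, 0.475 and 0.429 in samples labelled KO (2.29-fold higher, log2 1.2 ± 0.33, edgeR adjusted p = 0.0177). Replicates 1 and 2 labelled KO were high and replicate 4 lay within the WT range. The call ended with pairs summed (edgeR adjusted p = 0.257), with only the groups compared (0.0773) and without WT untreated replicate 1 (0.0683), KO untreated replicate 1 (0.086) or KO untreated replicate 2 (0.0993). Its relative Ndufa4 was 20.8 ± 1.42 CPM in WT untreated and 20.4 ± 0.688 in samples labelled KO.

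Cox7a2l (ENSMUSG00000024248, chromosome 17, 83501918 to 83517330, minus strand), which joins complexes III and IV into supercomplexes, was higher in samples labelled KO untreated and with LPS. It had 116, 126, 129 and 127 CPM in WT untreated against 151, 153, 136 and 133 labelled KO (log2 0.20 ± 0.056, edgeR adjusted p = 0.0215). With LPS it had 140.0, 135, 144 and 149 against 152, 158, 172 and 175 CPM (0.21 ± 0.056, 0.00562). The groups did not overlap in either condition, and in untreated samples labelled KO replicates 1 and 2 again lay highest. With pairs summed both calls ended (edgeR adjusted p = 0.423 and 0.144), and the untreated one also with only the groups compared (0.061) and without WT untreated replicate 1 (0.094), KO untreated replicate 1 (0.0821) or KO untreated replicate 2 (0.0993). Cox4i1 was 183, 188, 206 and 201 CPM in WT untreated and 225, 208, 211 and 207 in samples labelled KO (0.13 ± 0.041, 0.0426). The groups of Cox4i1 did not overlap, by a narrow margin, and the call ended with pairs summed (0.479), with size factors (0.0539), without the filter (0.104), with only the groups compared (0.156) and without any 1 of 5 libraries (0.0598 to 0.178: WT untreated replicate 1 or 2, KO untreated replicate 1, 2 or 3).

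With zymosan the samples labelled KO had 16 members higher and 0 lower, beside 22.1% of all genes called (10.6% higher, 11.4% lower). At an unadjusted p under 0.05 there were 28 of 81 higher and 0 lower, beside 16.5% and 17.1% of all genes. DESeq2 called 16 and 0. The 16 edgeR calls were 9 genes of complex I, 1 of II, 2 of III, 1 of IV and 3 of V. The median over all 81 members was 0.070 against -0.0040 for all genes. Summed over the 82 members the level was 6083 to 6355 CPM in WT zymosan samples and 6401 to 6746 in those labelled KO, ranges that do not overlap; untreated they were 6239 to 6816 and 6673 to 7278 CPM, which overlap. The count was 1 with pairs summed, 9 with only the groups compared, 9 without the filter on low counts, 9 without WT zymosan replicate 2, 10 without WT zymosan replicate 3 or 4 or KO zymosan replicate 1, and 8 without KO zymosan replicate 2.

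Ndufc2 (ENSMUSG00000030647, chromosome 7, 97400003 to 97407802, plus strand), an accessory subunit of the membrane arm of complex I, was the call kept with pairs summed. It had 32.6, 31.2, 29.9 and 32.5 CPM in WT zymosan and 41.9, 41.9, 40.9 and 39.1 in samples labelled KO, with no overlap (1.3-fold, log2 0.37 ± 0.062, edgeR adjusted p = 7.22e-05, and 0.0123 with pairs summed). Untreated, it had 28.8, 34.7, 33.5 and 36.3 and 37.3, 36.4, 36.3 and 31 CPM, which overlap. Ndufs7 was higher with zymosan in samples labelled KO (29.9 ± 2.93 against 24.2 ± 2.17 CPM, log2 0.31 ± 0.082, 0.00812), groups that overlap by KO zymosan replicate 3, a call that ended with pairs summed (0.0787). Ndufb5, an accessory subunit, had 43.4, 39.1, 40.7 and 37.8 CPM in WT zymosan and 48.2, 48.1, 44.6 and 44 in samples labelled KO. Those groups did not overlap (log2 0.20 ± 0.065, edgeR adjusted p = 0.028), and the call ended with pairs summed (0.238) and without any 1 of 4 libraries (0.0732 to 0.0906: WT zymosan replicate 2 or 4, KO zymosan replicate 1 or 2). Other genes moved with this contrast: of 15 proliferation genes 9 were above and 1 below WT in samples labelled KO (580 to 625 against 508 to 560 CPM summed), and summed eosinophil, mast cell and basophil markers were 67.0 to 74.8 against 916 to 1270 CPM. Of 8 macrophage and monocyte markers 1 was above and 5 below WT (2190 to 2440 against 3080 to 3260 CPM summed), of 11 tested conventional DC markers 6 and 2 (7050 to 7550 against 5840 to 6100), and of 11 neutrophil markers 1 and 4 (1220 to 1700 against 1300 to 2030). Their part in the 16 calls was not tested.

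With LPS 4 members were higher (Ndufb5, Ndufv3, Cox7a2l and Atp5c1) and 4 lower (Sdhc, Uqcrfs1, Cox5a and Atp5g3) in samples labelled KO, beside 33.9% of all genes called (15.6% higher, 18.2% lower). Ndufv3, an accessory subunit of the NADH-binding module, had 64.9, 68.8, 67.4 and 73.2 CPM in WT and 81.8, 81.3, 82.5 and 83.3 in samples labelled KO, with no overlap (log2 0.26 ± 0.061, edgeR adjusted p = 0.00168; 0.075 with pairs summed). Uqcrfs1 was lower (log2 -0.23 ± 0.050, edgeR adjusted p = 0.000842), and all its LPS samples labelled KO lay below all WT LPS samples. With pairs summed 0 members were higher and 1 was lower. With only the groups compared 9 were higher and 2 lower, 2 were higher when WT LPS replicate 1, 2 or 4 or KO LPS replicate 3 or 4 was left out, and 2 were lower without KO LPS replicate 4. Of 15 proliferation genes 11 were above and 1 below WT here, of 8 macrophage and monocyte markers 1 and 6, of 11 tested conventional DC markers 5 and 3, and of 11 neutrophil markers 6 and 3 (1620 to 1810 against 1290 to 1380 CPM summed). Summed eosinophil, mast cell and basophil markers were 67.6 to 79.3 CPM labelled KO and 976 to 1050 CPM in WT, and the part of these genes in the differences was not tested.

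**Figure D4:**
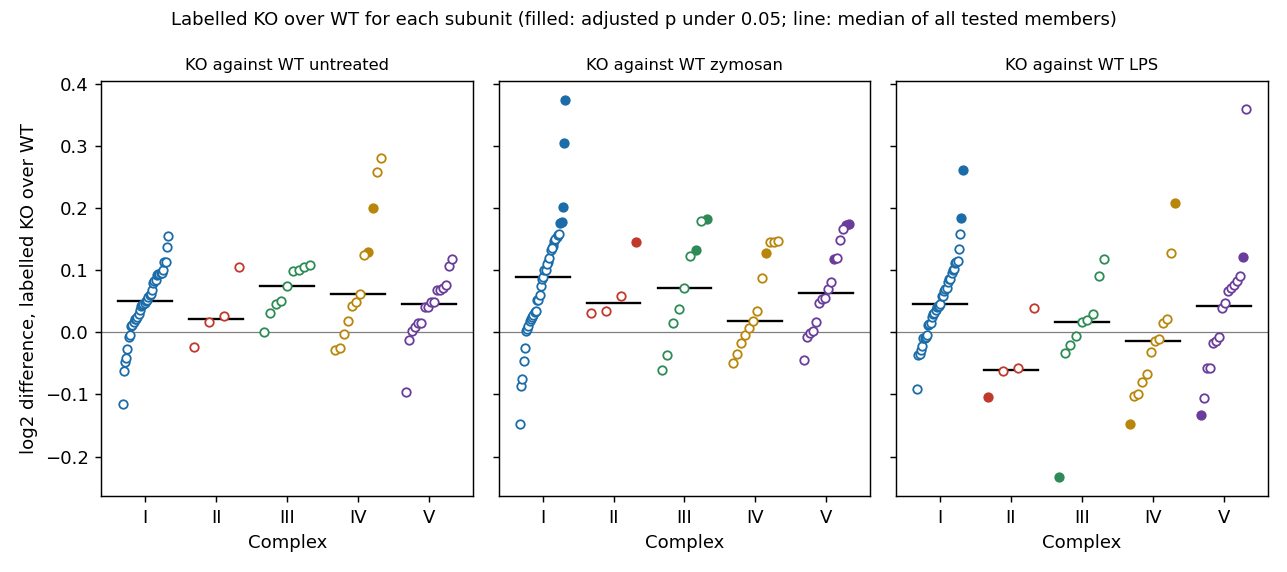
Log2 difference of each member between samples labelled KO and WT by complex, untreated, with zymosan and with LPS; filled points passed the test (edgeR adjusted p under 0.05), and lines mark the median of all tested members of a complex. With zymosan all 16 filled points lie above 0; Cox4i2 and Ndufa4l2 are not drawn.

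The test of whether a response itself differed by genotype label was passed by 0 members for zymosan, beside 1.82% of all genes (0.973% higher, 0.846% lower in samples labelled KO). At an unadjusted p under 0.05 there were 2 of 81 higher and 1 lower, beside 6.92% and 6.15% of all genes. DESeq2 called 2 and 0. Replicate numbers were taken to pair the untreated and zymosan samples, though several samples correlated best with the other number of their replicate pair. With the number as a block Ndufa8 passed (log2 0.24 ± 0.065, edgeR adjusted p = 0.0434 with the block nested in genotype, and 0.0324 with a shared block), its fall being smaller in samples labelled KO. For LPS 1 member passed, Uqcrfs1, beside 10.4% of all genes (4.61% and 5.84%). DESeq2 called 0 higher and 3 lower: Uqcrfs1, Cox5a (log2 -0.22 ± 0.074, DESeq2 adjusted p = 0.0274) and Sdhc (-0.14 ± 0.048, 0.0344). The rise of Uqcrfs1 was 1.93-fold in WT and 1.53-fold in samples labelled KO, a difference of -0.33 ± 0.071 on the log2 scale (edgeR adjusted p = 0.00408). With pairs summed it did not pass (0.238), and 3 members passed when KO untreated replicate 4 was left out.

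Several subunits exist as isoforms that are known to differ by tissue, and these cells used 1 form of most. Cox4i2, known from lung and oxygen sensing, had at most 0.374 CPM in any sample beside 175 to 225 CPM for Cox4i1. Cox4i2 had 0.246, 0.373, 0.316 and 0.131 CPM in untreated samples labelled KO and 0.202, 0.106, 0.0678 and 0.0554 with zymosan, groups that overlap, and was lower by log2 -1.23 ± 0.42 (edgeR adjusted p = 0.0125) at highest counts of 19. Its highest values were those of KO untreated replicates 1 to 3 and WT untreated replicate 3 (0.28 CPM). Cox4i2 met the count rule through these samples, so this fall is not independent of the rule and is not read as a response. Cox6b2, known from testis, had 0.0259 to 0.295 CPM beside 126 to 150.1 CPM for Cox6b1. Cox7a1, the heart and muscle form, had group means of 2.15 ± 0.143 CPM in WT untreated and 2.61 ± 0.313 with LPS (log2 0.28 ± 0.12, edgeR adjusted p = 0.0332), beside 75.2 ± 3.6 and 96 ± 0.763 for Cox7a2. The Cox7a1 call ended with pairs summed (0.0931). Per kb the order was Cox7a2 (128), Cox7a2l (124) and Cox7a1 (4.78) CPM, and Cox8b had 0 counts in all samples.

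Subunit c of complex V is made from 3 genes in the mouse, Atp5g1, Atp5g2 and Atp5g3, and Atp5g2 had 0 counts in all 24 samples. A processed pseudogene, Gm10231, whose transcript matches that of Atp5g2 at 100% identity over its whole length, had a median count of 5278 (chosen after its values were seen). Counts of Gm10231 were 137.9 ± 5.27 CPM in WT untreated, 127.7 ± 6.11 with zymosan and 122.3 ± 4.75 with LPS (SD, n = 4; log2 -0.11 ± 0.05 and -0.17 ± 0.05, edgeR adjusted p = 0.053 and 0.00342). Reads of such copies cannot be told apart over the shared sequence, so the zero of Atp5g2 was not read as absence. In the same way Ndufb4c, annotated as a processed pseudogene, is identical to the complex I gene Ndufb4 over its whole transcript, and the split between them (18.7 and 10.1 CPM in WT untreated) is uncertain. Of the 82 members 13 had a copy of at least 95% identity over at least 50% of the transcript, and in 4 the copy had a median count of 10 or more.

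Promoters were examined for motifs of factors known to drive respiratory genes, since members moved together in both directions. RefSeq promoter windows (GRCm38.p6, 250 bases before to 50 after a start) matched 64 of 82 members by symbol. The motif of nuclear respiratory factor 1 (NRF1), spelled GCGCA, then any base, then GCGC, with all motifs searched on both strands, was in 16 of the 64 (25.0%), beside 11% of tested genes with a window and 5.19% of all genes with a window. Shares are of genes that held a motif in any of their windows. AANATGGCG, for YY1, was in 15.6% of members and 5.75% of tested genes, and AAGGTCA, for estrogen-related receptors, in 12.5% and 4.04%. The ETS motif CCGGAAG was in 25.0% and 19.8%, and GGGCGG, for SP1, in 39.1% and 66.5%. A larger share of members than of tested genes thus held each of these motifs but that of SP1. These shares are descriptions and came with no test.

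Of the 24 members that fell in all 4 responses 20 had a window, and 7 of these held the NRF1 motif (Atp5g3, Ndufa6, Ndufa8, Ndufs6, Sdha, Sdhd and Uqcrc1). Of the 7 that rose in all 4, 5 had a window and 0 held it. Among the other members it was in 9 of 39. In the 20 falling and 5 rising members with a window the YY1 motif was in 3 and 2. That of SP1 was in 9 and 3, that of ETS factors in 4 and 1, and that of estrogen-related receptors in 2 and 0. A link between motifs and direction was not tested. The NRF1 sites of 5 falling members are shown because they span complexes I, II, III and V. They are given as 30 bases on the strand of the gene with the 10 motif bases in capitals. Sdha held 3 sites, and the other genes shown here 1 or 2.
Sdha, chr13:74350231-74350260, minus strand: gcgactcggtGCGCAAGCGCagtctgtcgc
Sdha, chr13:74350276-74350305, minus strand: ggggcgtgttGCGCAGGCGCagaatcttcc
Sdha, chr13:74350319-74350348, minus strand: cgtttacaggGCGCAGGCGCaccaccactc
Sdhd, chr9:50603909-50603938, minus strand: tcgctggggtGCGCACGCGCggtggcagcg
Uqcrc1, chr9:108936668-108936697, plus strand: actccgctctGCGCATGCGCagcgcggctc
Atp5g3, chr2:73911295-73911324, minus strand: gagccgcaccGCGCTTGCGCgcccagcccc
Ndufa8, chr2:36049349-36049378, minus strand: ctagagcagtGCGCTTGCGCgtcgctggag

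As examples, upstream stretches free of annotated exons are shown for Uqcrfs1 and Sdhb. Uqcrfs1, which rose most, held none of the 5 motifs in its stretch. Sdhb, which fell, held GGGCGG or its reverse complement at 3 places (capitals). They do not stand for rising and falling members: the stretches of Ndufs7, Atp5g1 and Ndufb10, which fell, held none of the motifs. The stretch of Cox7a2, which rose, held that of SP1. A stretch is only part of a promoter window. Outside their stretches the window of Ndufs7 held the YY1 motif and that of Sdhb the ETS motif.
Uqcrfs1, chr13:30545363-30545562, minus strand: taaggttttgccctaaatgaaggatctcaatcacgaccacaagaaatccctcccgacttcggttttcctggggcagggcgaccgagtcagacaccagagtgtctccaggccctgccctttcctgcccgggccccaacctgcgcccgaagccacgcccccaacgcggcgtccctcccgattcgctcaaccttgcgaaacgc
Sdhb, chr4:140961021-140961202, plus strand: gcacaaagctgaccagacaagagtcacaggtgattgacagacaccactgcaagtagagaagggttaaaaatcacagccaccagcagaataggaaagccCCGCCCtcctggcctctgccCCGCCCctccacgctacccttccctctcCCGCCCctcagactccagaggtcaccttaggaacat

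Of the factors named for these motifs, values are given here for Nrf1 and Esrra only, beside coactivators of respiratory genes, and these genes moved in both directions. Their part in the changes of the subunits was not tested. Nrf1 was 22.5 ± 0.763 CPM in WT untreated and rose to 29.8 ± 1.64 with zymosan and 28 ± 1.31 with LPS (log2 0.40 ± 0.046 and 0.31 ± 0.047), and Esrra, the estrogen-related receptor α, rose as well (0.33 ± 0.046 and 0.47 ± 0.046). Ppargc1b, a coactivator of respiratory genes, fell from 6.99 ± 1.05 to 2.85 ± 0.473 and 2.35 ± 0.571 CPM (-1.29 ± 0.14 and -1.58 ± 0.15), and Pprc1, a related coactivator, fell from 22.2 ± 1.59 to 11.6 ± 1.58 and 9.37 ± 0.498 CPM. Ppargc1a had a mean of at most 0.0205 CPM in any group. Of 14 tested regulators of mitochondrial biogenesis 6 rose and 7 fell with zymosan in WT, and 5 and 6 with LPS.

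Genes around the complexes were read from lists (counts as rises and falls past the test in WT). Of 45 assembly factors 11 rose and 27 fell with zymosan, and 15 and 23 with LPS, with medians of -0.26 and -0.17. Ndufaf4, which builds complex I, fell (log2 -1.73 ± 0.08 and -2.21 ± 0.08), as did Lyrm7, which inserts the Rieske protein (-1.86 ± 0.34 and -2.66 ± 0.38), while Sco1, a copper chaperone of complex IV, rose with LPS (1.97 ± 0.08). The changes of these assembly factors were larger than those of any subunit in WT. Of 18 genes of the tricarboxylic acid cycle 3 rose and 12 fell with zymosan, and 3 and 14 with LPS, among them Idh3a (-1.17 ± 0.06 and -1.62 ± 0.06), a subunit of isocitrate dehydrogenase. Of 14 genes of electron carriers and coenzyme Q synthesis 5 rose and 7 fell with zymosan, and 5 and 8 with LPS. Among them Cycs, cytochrome c itself, rose from 40.9 ± 1.04 to 65.8 ± 1.99 and 81.7 ± 4.83 CPM (0.69 ± 0.057 and 1.00 ± 0.057), as Uqcrfs1 did. Of 18 genes of mitochondrial mass and import 3 rose and 14 fell with either stimulus, with the prohibitin gene Phb at -1.12 ± 0.06 and -1.53 ± 0.06. In the same list 10 of 18 exceeded WT and 0 fell below it in zymosan samples labelled KO.

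Of 8 tested genes that join, inhibit or uncouple the complexes (2 of them, Ndufa4l2 and Cox7a2l, also members) 3 rose and 3 fell with zymosan in WT, and 4 and 3 with LPS. Nos2, whose product nitric oxide is known to block cytochrome c oxidase, rose from 190.3 ± 27.9 to 2588 ± 159 and 4119 ± 215 CPM (3.77 ± 0.086 and 4.44 ± 0.089). Acod1, which makes itaconate, a known inhibitor of succinate dehydrogenase, rose from 488 ± 55.2 to 4539 ± 296 and 4878 ± 247 CPM (3.22 ± 0.091 and 3.32 ± 0.091). Ucp2, an uncoupling protein, fell (-0.93 ± 0.04 and -1.33 ± 0.04). The 13 mitochondrially encoded subunits were looked for by symbol, and 0 were found among the genes counted, so they were not analysed here.

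Markers of other cells moved with stimulation in part. Of 8 macrophage and monocyte markers 5 rose and 3 fell with either stimulus in WT (summed 1830 to 1890 CPM untreated, 3080 to 3260 with zymosan, 3010 to 3150 with LPS), and of 11 tested conventional DC markers 6 rose and 1 fell with zymosan and 6 and 2 with LPS. Of 11 neutrophil markers 5 and 2 rose and 0 fell, of 11 tested eosinophil, mast cell and basophil markers 1 and 2 rose and 1 fell with each, and of 5 tested plasmacytoid DC markers 3 and 4 rose and 1 fell with each. Lymphocyte markers (0 rises, 1 fall of 4 tested with each stimulus) and stroma markers (1 and 2 rises of 5 tested, summed 2.92 to 10.3 CPM) stayed at low levels. The part of these markers in the responses of the subunits was not tested.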

How the data were processed

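RNA-seq counts of 24 samples (6 groups of 4) were used as deposited: the authors provided whole-number counts for 38887 Ensembl genes, and the submitters' processing notes name Bowtie2, RSEM 1.2.31, DESeq2 and mm10 without role or order. Total RNA was made into mRNA libraries, per the labels' protocols. Of the identifiers 37570 were named with GENCODE M21; 14809 genes had no count. Samples were grouped by their labels. Genes passing edgeR's filter on low counts (14188) were fitted in edgeR 4.0.16 (R 4.3.3, TMM factors 0.88 to 1.19, quasi-likelihood test, common biological coefficient of variation 0.0686) with 1 model of 6 group means, and p-values were adjusted by Benjamini-Hochberg over all of them within each of 11 comparisons (threshold 0.05). A prior count of 2 entered only the log2 CPM used to check whether replicate numbers pair. Levels per kb used exon unions. Total counts per sample were at least 32223256, but counting error is not small beside replicate spread for members at low counts. Among these are Cox4i2, Cox6b2 and Ndufa4l2, with group means under 1 CPM, Atp5s (49 to 129 counts) and Cox7a1 (71 to 140 counts).

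Members and lists were chosen with earlier results of these data known. Per-sample values are given for the called members with the largest rise and fall in each complex, the largest genotype differences, the highest member per kb and the isoform sets; other genes were named for their role after their values were seen. Same-numbered untreated and zymosan samples deviated together (correlations 0.151 to 0.247 in WT, all above 0.1 in samples labelled KO). Replicate numbers were therefore taken to pair them. The best match was not always the same number: WT untreated replicate 2 matched zymosan replicate 1 best. Labelled KO, untreated replicates 1, 2 and 4 matched zymosan replicates 2, 1 and 3 best. These matches lie within the replicate pairs (1 with 2, 3 with 4), so pairing by single number is uncertain. The other groups were not taken to be paired, yet the replicate block was fitted over all 24 samples, LPS samples among them. Values with the block therefore do not come from a fit that pairs only untreated and zymosan samples. Alternatives were DESeq2 1.42.0, its size factors, no filter, only the groups compared, a replicate block, summed replicate pairs and leaving out each replicate. The fit was tested on simulated data.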

Additional observations from a re-analysis of the deposited data

Results flagged for a closer look

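In 168 groups of 4 samples (28 members with per-sample values) 7 held a sample far from the others, its gap to the nearest exceeding Dixon's 95% critical value as a share of the group's range; that is 4.17%, and chance flags about 1 in 20 groups. Ndufs4 had 56.82 CPM in KO zymosan replicate 3, above 48.95 to 49.86 in the others. Ndufs7 had 46.87 CPM in WT untreated replicate 4 (others 40.21 to 41.09) and 25.48 CPM in KO zymosan replicate 3 (others 31.11 to 31.67). Uqcrfs1 had 115.8 CPM in WT zymosan replicate 4 (others 104.4 to 105.9), and Uqcr11 44.24 CPM in KO LPS replicate 3 (others 39.62 to 40.09). Ndufc2 was low at 31.01 CPM in KO untreated replicate 4 (others 36.28 to 37.31), and Atp5g3 at 144.7 CPM in WT zymosan replicate 3 (others 156.6 to 158.4). The response of Uqcrfs1 to LPS differed between genotype labels by -0.3333 on the log2 scale in a test of the difference itself (edgeR adjusted p = 0.00408).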

How the results depend on the processing

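Of 413 values for 27 results on named members 368 kept their call, 45 lost it and 0 changed sign. For KO against WT with LPS the balance of 4 higher and 4 lower was 9 and 2 with only the groups compared, 0 and 1 with pairs summed and 3 and 4 with size factors. With replicate pairs summed, the counts that moved by over 1.5 times were, in WT, LPS 12 higher and zymosan against LPS 1 higher and 4 lower; labelled KO, zymosan 5 higher and 21 lower, LPS 8 higher, and zymosan against LPS 1 higher and 0 lower; KO against WT, untreated 0 higher, zymosan 1 higher, LPS 0 higher and 1 lower; and 0 lower for the LPS response by genotype. Fewer samples enter that fit. Without the filter, KO zymosan against LPS had 11 higher and KO against WT with zymosan 9. With only the groups compared, KO against WT had 0 higher untreated, 9 higher with zymosan, and 9 higher and 2 lower with LPS. DESeq2 gave 2 higher for the zymosan response by genotype and 3 lower for the LPS response. With the replicate number as a block, nested in genotype, KO against WT untreated had 5 higher. That contrast lies between blocks, and the nested fit leaves the spread between replicate numbers of a genotype out of its test. The added calls are therefore not read as more support. In the nested fit the zymosan response by genotype had 1 higher and the LPS response 4 lower. Those 4 were Uqcrfs1, Cox8a at 0.00358, Cox5a at 0.00896 and Cox6a1 at 0.0293 (edgeR adjusted p), and the numbers were not taken to pair LPS samples. With a shared block the zymosan response by genotype had 1 higher and the LPS response 2 lower (Uqcrfs1 and Cox5a). In the zymosan responses, where numbers were taken to pair the samples, the block also called Ndufa3 in WT (edgeR adjusted p = 0.0362 nested, 0.043 shared). The shared block called Atp5e and Atp5k labelled KO (0.0476 and 0.0423). The cause of these shifts was not tested.

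Leaving out 1 replicate at a time gave, as higher and lower: WT zymosan 7 to 9 and 31 to 39, WT LPS 14 to 22 and 33 to 39, WT zymosan against LPS 4 to 7 and 7 to 11, KO zymosan 6 to 10 and 24 to 35, KO LPS 9 to 18 and 30 to 39, KO zymosan against LPS 10 to 19 and 6 to 9. KO against WT gave 0 to 3 and 0 untreated, 8 to 21 and 0 to 1 with zymosan (1 lower without WT zymosan replicate 3), and 2 to 5 and 2 to 4 with LPS. The zymosan response by genotype gave 0 to 1 higher (1 without WT untreated 1, WT zymosan 1 or KO zymosan 4), and the LPS response 1 to 3 lower (2 without WT LPS 1, KO untreated 2 or KO LPS 3; 3 without KO untreated 4). Depth limits Cox4i2, Cox6b2, Ndufa4l2, Atp5s and Cox7a1.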

Other observations

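Ndufs7, Uqcr11 and Atp5d, of 3 different complexes, are near neighbours on chromosome 10, starting at 80249121, 80402997 and 80138632 (GRCm38), and were singled out after their values were seen. All 3 fell with zymosan in WT (log2 -0.81, -0.38 and -0.33), and with LPS they had -0.78, -0.32 and -0.21, the last not past the test (edgeR adjusted p = 0.0555). In samples labelled KO their values were -0.64, -0.31 and -0.25 with zymosan, and -0.90, -0.31 and -0.38 with LPS.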
